A study of Mus musculus with 2 samples.

Results

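Nuclear genes of oxidative phosphorylation (OXPHOS) encode most subunits of the mitochondrial respiratory chain and ATP synthase, and they are described here in polysomal RNA of macrophages that lack Oasl1. Members were the genes on the array whose symbol starts with Nduf, Uqcr, Cox4 to Cox8 or Atp5, together with Cyc1, Cycs and the 4 Sdh genes. This gave 92 genes of 22088, covered by 122 of 35556 probe sets, and each gene was read from its probe set with the highest mean signal. The choice used names and the mean over both arrays, not the difference between them.

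Bone marrow cells of C57BL/6J mice were grown into macrophages for 7 days with L929 cell supernatant and then exposed for 12 h to 10 µg/ml of poly(I:C), a double-stranded RNA made synthetically that stands in for a virus. The groups were Oasl1-/- macrophages (1 array) and wild-type (WT) macrophages (1 array), both treated, and no untreated cells were analysed. RNA came from fractions 9, 10 and 11 of 16 on a 10% to 50% sucrose gradient, the polysomal part, and was hybridised to Affymetrix Mouse Gene 1.0 ST arrays. The labels give neither the deleted part of Oasl1 nor the number of mice behind a culture. OASL1 is an interferon-induced protein known to restrain translation of Irf7 mRNA, and the comparison asks which mRNAs differ on polysomes without it. With 1 array per genotype there is no replicate error, no test and no p-value, and every difference is a description of these arrays.

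Differences are given as the Oasl1-/- minus the WT log2 signal. A polysomal signal reflects both how much of an mRNA there is and how much of that is on ribosomes, and these cannot be told apart here, nor can fewer cells of a type and less RNA per cell. A gene was counted when the higher of its signals was at least 7, a floor near the top of 5222 intron controls, whose upper 97.5% point was 7.34 on the Oasl1-/- and 7.13 on the WT array. This left 7835 genes with a median difference of -0.09, so the median gene past the floor was slightly lower in Oasl1-/- cells. Without a floor the median over all 22088 genes was 0.03, with 42.7% lower, so this direction depends on the floor. Oasl1 had a log2 signal of 9.14 in Oasl1-/- and 10.70 in WT cells, a difference of -1.57. Of 10 macrophage markers 9 passed the floor, all but Cd163, and the summed linear signal of the 10 was 35470 in Oasl1-/- and 31866 in WT cells. None of the markers of T, B, NK, dendritic, mast and erythroid cells, neutrophils and fibroblasts passed it.

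As background, complex I takes electrons from NADH and complex II from succinate. Both pass them through coenzyme Q to complex III, from there through cytochrome c to complex IV, and so to oxygen. Complexes I, III and IV pump protons, and complex V, the ATP synthase, uses the proton gradient to make ATP. Most subunits are translated on cytosolic ribosomes and imported, while a few hydrophobic ones are encoded and translated inside mitochondria. Core subunits of complexes I to III here are mostly those that carry the redox centres, bind the electron carriers or anchor such subunits in complex II. Also counted as core are the large proteins of complex III named core proteins, which hold no redox centre. Supernumerary subunits are the usually small proteins around them. Macrophages are known to lower their use of oxidative phosphorylation after some inflammatory stimuli.

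Nuclear promoters of these genes are known to bind NRF1, ETS-family factors such as GABP and YY1. Of the 77 members past the floor, 64 had a promoter window of 300 bases in the RefSeq table (GRCm38.p6), from 250 bases before the annotated transcript start to 50 after it. Motifs were searched on both strands as CGCANGCG (NRF1 core), CCGGAAGT (ETS) and AAGATGGC (YY1). A pair of windows from complex III, one of a gene whose signal was lower in Oasl1-/- cells and one of a gene at nearly the same signal, and a like pair from complexes I and V show that the NRF1 letters occurred in both kinds. The 4 windows lie at chr10:80406772-80407071 (minus strand, Uqcr11), chr9:108936398-108936697 (plus strand, Uqcrc1), chr13:73328433-73328732 (minus strand, Ndufs6) and chr16:91931581-91931880 (minus strand, Atp5o). Each is written 5′ to 3′ along the gene, and capitals mark matches to the 3 motifs.
Uqcr11: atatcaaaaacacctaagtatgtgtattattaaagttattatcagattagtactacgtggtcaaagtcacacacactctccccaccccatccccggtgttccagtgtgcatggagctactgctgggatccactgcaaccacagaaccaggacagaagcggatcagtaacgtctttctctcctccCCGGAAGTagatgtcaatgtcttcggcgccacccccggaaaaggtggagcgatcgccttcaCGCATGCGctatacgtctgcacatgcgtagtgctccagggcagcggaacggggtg
Uqcrc1: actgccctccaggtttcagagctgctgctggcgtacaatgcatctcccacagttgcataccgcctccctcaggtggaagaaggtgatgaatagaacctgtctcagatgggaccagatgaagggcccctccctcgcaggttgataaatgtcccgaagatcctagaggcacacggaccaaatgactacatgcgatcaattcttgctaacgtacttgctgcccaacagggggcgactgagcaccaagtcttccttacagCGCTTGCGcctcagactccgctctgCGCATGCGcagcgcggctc
Ndufs6: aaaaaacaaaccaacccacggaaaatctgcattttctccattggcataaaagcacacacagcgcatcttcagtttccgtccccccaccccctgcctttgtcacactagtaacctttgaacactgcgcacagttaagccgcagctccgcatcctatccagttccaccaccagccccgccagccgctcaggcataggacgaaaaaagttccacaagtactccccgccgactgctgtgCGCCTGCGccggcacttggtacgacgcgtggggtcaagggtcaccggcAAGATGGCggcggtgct
Atp5o: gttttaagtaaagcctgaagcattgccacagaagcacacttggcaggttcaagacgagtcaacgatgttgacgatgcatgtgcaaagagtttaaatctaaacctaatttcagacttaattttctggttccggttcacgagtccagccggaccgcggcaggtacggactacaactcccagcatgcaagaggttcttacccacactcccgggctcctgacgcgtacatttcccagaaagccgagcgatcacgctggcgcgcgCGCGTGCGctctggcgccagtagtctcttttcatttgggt

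The NRF1 core was found in 24 of the 64 member promoters (37.5%), against 21.5% of 6230 promoters of genes past the floor and 9.22% of all 27025 genes in the table. The YY1 letters were found in 10 (15.6%), against 6.23% of genes past the floor and 3.19% of all genes. The ETS letters were found in 5 (7.81%), against 10.9% and 4.31%. A TATA box (TATAAA) was found in 5 (7.81%), against 8.65% and 15.7%. The NRF1 and YY1 shares were not particular to the members. Over 55 promoters of mitochondrial ribosomal protein genes past the floor they were 34.5% and 14.5%, with ETS at 20%. Over 60 promoters of cytosolic ribosomal protein genes NRF1, YY1 and ETS stood at 18.3%, 10% and 20%. Members with and without the NRF1 core had nearly the same median difference, -0.28 over 24 and -0.29 over 40 genes, and for YY1 the medians were -0.29 over 10 and -0.28 over 54. Among the printed windows, Uqcr11 and Ndufs6 had differences of -0.37 and -0.46, and Uqcrc1 and Atp5o of -0.04 and -0.06. All 4 windows hold the NRF1 core, but they are examples and do not stand for its share, 24 of 64. The ETS letters stand only in the Uqcr11 window and the YY1 letters only in the Ndufs6 window.

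Nearly all members had a lower polysomal signal in Oasl1-/- cells, each by a small amount. Of the 77 members past the floor 75 were lower and 2 higher, where 60.6% of all genes past the floor were lower and 39.1% higher. The median difference was -0.28, a signal 1.22-fold lower in Oasl1-/- cells, or -0.19 relative to the median gene. The interquartile range of the members was -0.38 to -0.16, and the SD over members was 0.15, against 0.39 over all genes. Only 2 members were at least 1.5-fold lower (6.28% of all genes) and none at least 1.5-fold higher (5.27%). None was at least 2-fold lower (0.651%) or 2-fold higher (1.57%). Below the lower quartile of all genes, -0.30, lay 33 of the 77 members, and above the upper quartile, 0.14, lay none. Only 4 members lay below the lowest decile of all genes, -0.49.

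**Figure D1:**
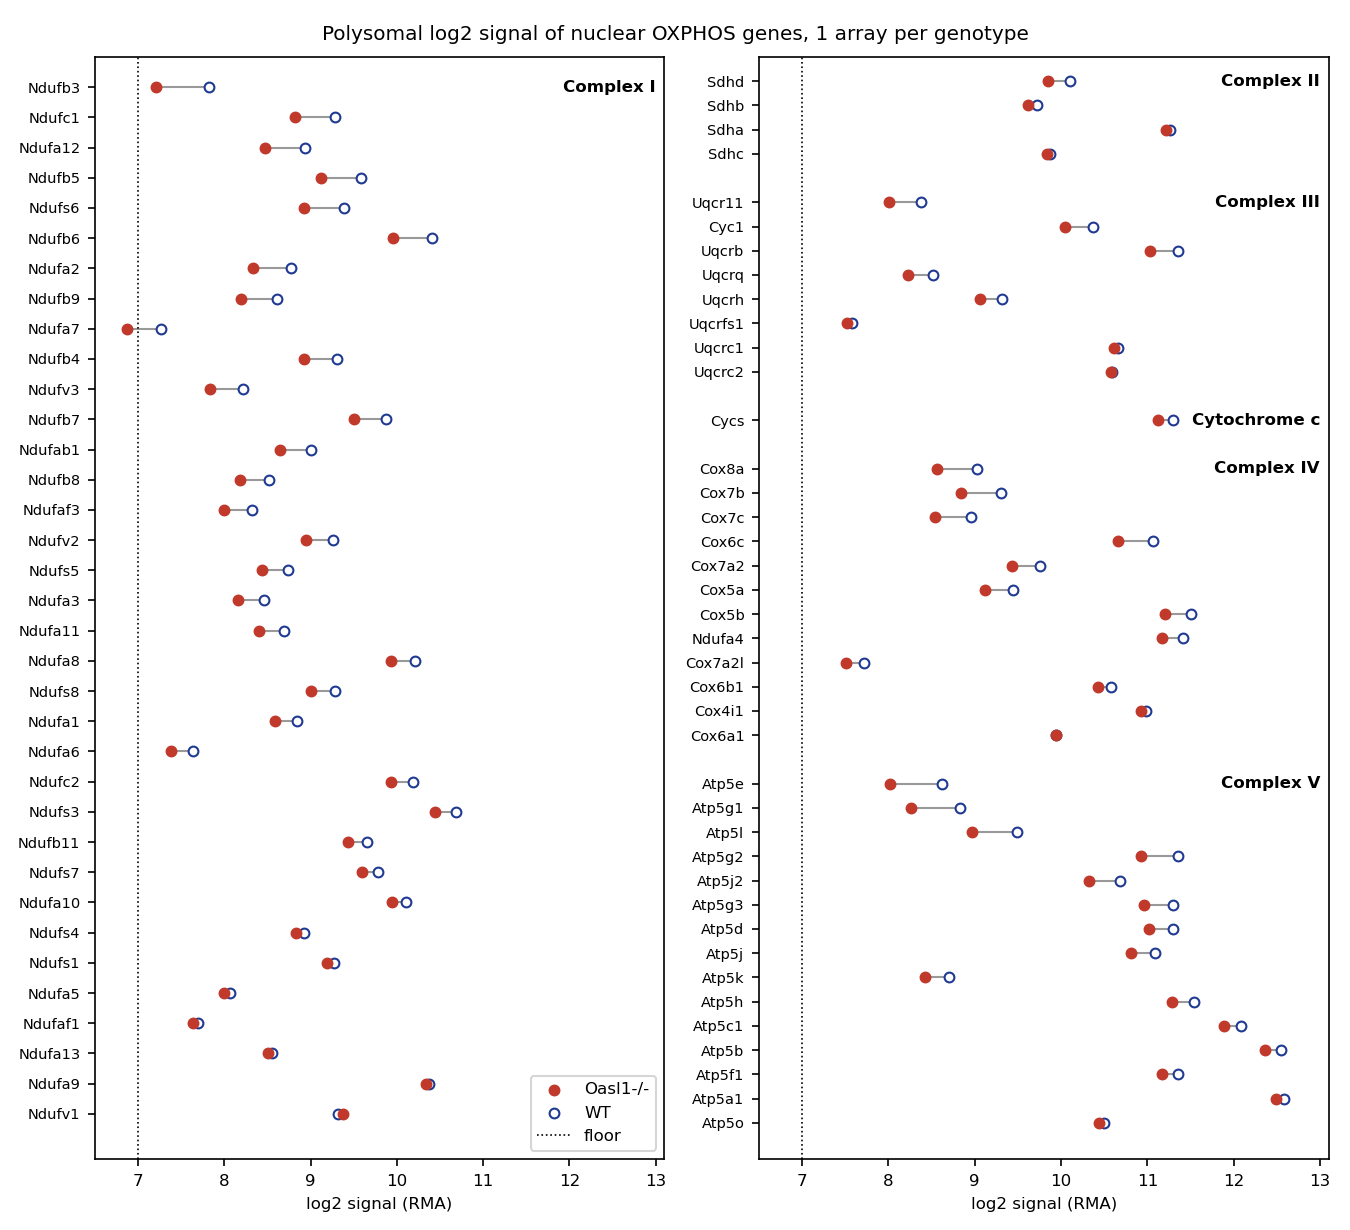
Log2 RMA signal of 75 OXPHOS genes past the floor in the Oasl1-/- array (filled) and the WT array (open), ordered within each complex from the lowest difference, with the floor of 7 dotted. The filled point lies left of the open one for all genes but Ndufv1 and Cox6a1, and the longest lines belong to Ndufb3, Atp5e and Atp5g1.

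Another member past the floor, Cox4nb, carries a Cox name for its place beside Cox4i1. It encodes a subunit of a membrane insertion complex of the endoplasmic reticulum, now named Emc8, and takes no part in respiration. Its signal was 7.43 in Oasl1-/- and 7.65 in WT cells, a difference of -0.23. It is counted among the 77 but in no complex.

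Members were lower than other genes of like signal at all levels of brightness. Among 13 members with a mean signal of 11 or more the median was -0.25, against 0.00 for 602 other genes of that signal. Among 21 members between 8 and 9 it was -0.34, against -0.10 for 2121 other genes. The gap between members and other genes was smallest below 8, at -0.08, where there were only 7 members, and lay between -0.17 and -0.25 in the other bins.

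**Figure D2:**
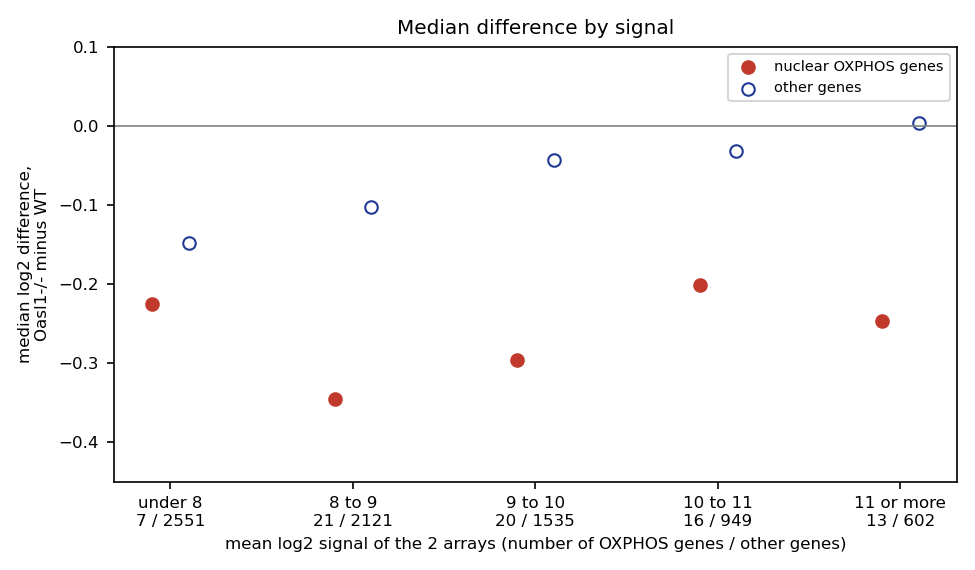
Median log2 difference, Oasl1-/- minus WT, of OXPHOS genes (filled) and of other genes past the floor (open) in bins of mean log2 signal, with the number of each under the axis. The OXPHOS median lies below that of the other genes in each bin.

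Complex I, the NADH dehydrogenase, had 34 structural members past the floor with a median difference of -0.29, and 33 of them were lower. Its largest difference was that of Ndufb3, a small supernumerary subunit of the membrane arm, with 7.21 in Oasl1-/- and 7.82 in WT cells (-0.61, 1.52-fold lower). The Oasl1-/- signal lies below the 97.5% point of the intron controls on that array, 7.34, so the size of this difference is less certain than that of brighter members. Its probe set of 14 probes spans chr1:58643162-58652792 (plus strand, NCBIM37). Read from the brightest probe set of each gene, Ndufb3 was also the lowest of all members past the floor. Its rank from the lowest was 440 among the 7835 genes. Ndufc1, another membrane arm subunit, had 8.82 in Oasl1-/- and 9.29 in WT cells (-0.47). A dimmer probe set of Ndufc1, on chromosome 13, had 7.46 in Oasl1-/- and 8.07 in WT cells (-0.62), which is below Ndufb3. Ndufa12 had 8.47 and Ndufs6, a zinc-binding subunit, 8.93 in Oasl1-/- cells, against 8.93 and 9.38 in WT cells, a difference of -0.46 for each. The 8 Ndufb subunits, which build the far part of the membrane arm, were all lower, with a median of -0.40 and a range of -0.61 to -0.22.

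At the other end stood some subunits of the electron path and some supernumerary ones. Ndufv1, which binds the flavin that takes electrons from NADH, had 9.38 in Oasl1-/- and 9.32 in WT cells and was the only complex I member that was higher (0.06). Ndufs1, which holds several iron-sulphur clusters, had 9.19 in Oasl1-/- and 9.27 in WT cells (-0.08). Among the 7 nuclear core subunits, Ndufv2, an iron-sulphur protein beside Ndufv1, was the lowest, with 8.95 in Oasl1-/- and 9.26 in WT cells (-0.31). Ndufs8, Ndufs3 and Ndufs7 differed by -0.28, -0.25 and -0.19. A few supernumerary subunits were as near to level as the core. Ndufa9, with 10.34 in Oasl1-/- and 10.38 in WT cells, differed by -0.04, Ndufa13, also known as GRIM-19, by -0.05, Ndufa5 by -0.07 and Ndufs4 by -0.09. The remaining supernumerary subunits of complex I lay between -0.46 (Ndufb5) and -0.16 (Ndufa10). Among them Ndufa7, with 6.88 in Oasl1-/- and 7.27 in WT cells (-0.39), passed the floor through the WT array alone. With a floor of 7 on both arrays, 74 of 76 members of all complexes were lower.

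The 7 core subunits of complex I thus had a median of -0.19 and the 27 supernumerary subunits past the floor one of -0.34, with ranges of -0.31 to 0.06 and -0.61 to -0.04 that overlap. At or below -0.30 lay 1 of the 7 core and 15 of the 27 supernumerary subunits. This split was made after the values were seen.

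Complex II, succinate dehydrogenase, is wholly encoded in the nucleus and stood closest to the median gene, with a median of -0.08. Sdha, the flavoprotein, had 11.21 in Oasl1-/- and 11.26 in WT cells (-0.05). Sdhb, the iron-sulphur subunit, had 9.62 in Oasl1-/- and 9.72 in WT cells (-0.10). Of the membrane anchors, Sdhc had 9.83 in Oasl1-/- and 9.87 in WT cells (-0.04) and Sdhd had 9.85 in Oasl1-/- and 10.10 in WT cells (-0.25). Sdhd alone lay more than 0.1 below the median gene. After centring on the median gene the median of the 4 was 0.01, so complex II had no stable direction.

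Complex III, which passes electrons from coenzyme Q to cytochrome c, had 8 structural members past the floor, all lower, with a median of -0.27. Their differences varied by role. The large core proteins Uqcrc1 and Uqcrc2 were level, with 10.61 and 10.58 in Oasl1-/- cells, against 10.65 and 10.59 in WT cells (-0.04 and -0.01). Uqcrfs1, the Rieske iron-sulphur protein, had 7.52 in Oasl1-/- and 7.58 in WT cells (-0.06). Cyc1, the cytochrome c1 that hands electrons to cytochrome c, was lower, with 10.04 in Oasl1-/- and 10.37 in WT cells (-0.33). The 4 supernumerary subunits past the floor lay between -0.37 and -0.25. The lowest was Uqcr11, with 8.01 in Oasl1-/- and 8.38 in WT cells, followed by Uqcrb with 11.04 and 11.36 (-0.32), Uqcrq (-0.29) and the hinge protein Uqcrh (-0.25). The Uqcrb value is from a probe set on chromosome 14, and the one at its own locus gave -0.39. A second Uqcr11 probe set, on chromosome 1, gave -0.22, so the order of Uqcr11 and Uqcrb depends on the probe set. Uqcr10, just under the floor, had 6.57 in Oasl1-/- and 6.98 in WT cells.

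Taken over complexes I, II and III, the 15 core and redox subunits had a median of -0.08, which is 0.01 above the median gene. The 31 supernumerary subunits of complexes I and III had a median of -0.32, or -0.23 relative to the median gene. Across 12 alternatives, including the one given next, the first median ranged from -0.10 to 0.01 and the second from -0.33 to -0.23. With Uqcrc1 and Uqcrc2 counted as supernumerary instead, the medians were -0.10 over 13 and -0.30 over 33 genes. The core subunits were mostly brighter than the supernumerary ones. With the trend of differences over signal removed by loess, the medians were -0.06 for the core and -0.24 for the supernumerary subunits. A part of brightness in the split was not tested. The classes overlap, since Cyc1 and Ndufv2 lay close to the supernumerary median, and no test of the difference was possible.

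**Figure D3:**
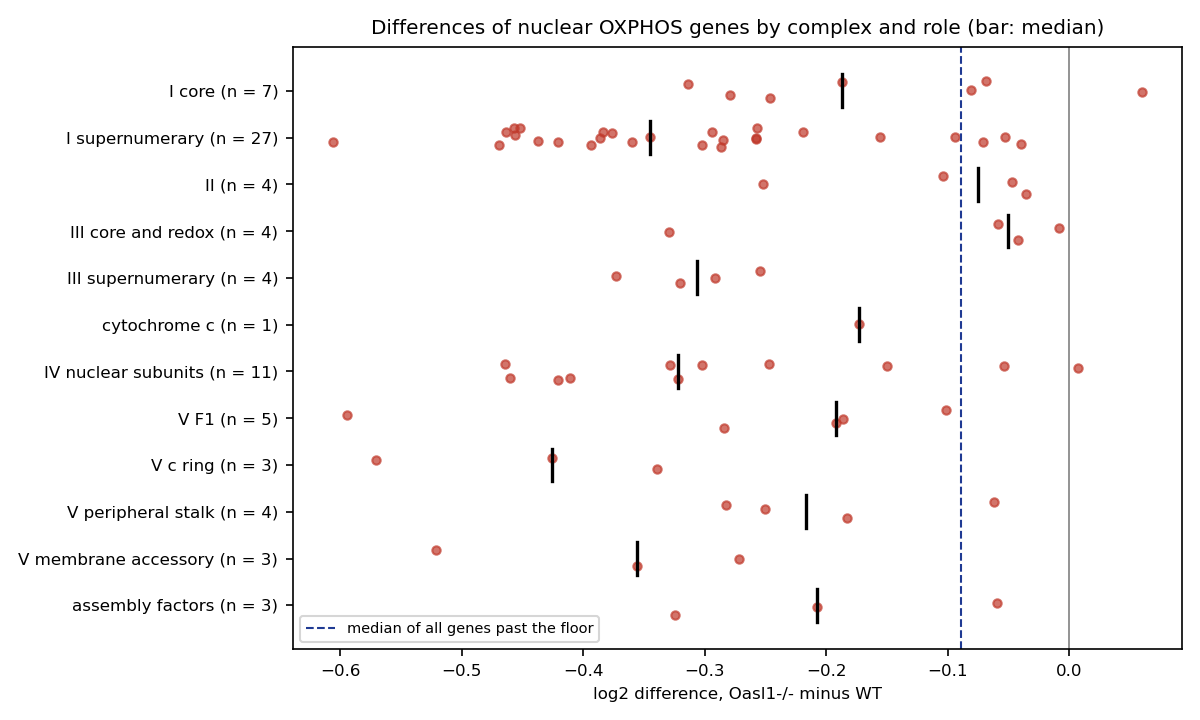
Log2 difference, Oasl1-/- minus WT, of each OXPHOS gene past the floor (points) by complex and role, with the median of each class (bar), the median of all genes past the floor (dashed, -0.09) and 0 (solid). By median, core subunits of complexes I to III sit further right than the supernumerary ones, though the points overlap, and the c ring genes of complex V sit furthest left by median (-0.43).

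Cycs encodes cytochrome c, the soluble carrier between complexes III and IV. Its signal was 11.13 in Oasl1-/- and 11.30 in WT cells (-0.17) on a probe set at chromosome 5, 13121449 to 13121766, away from the gene itself, which RefSeq places on chromosome 6. A second probe set, on chromosome 19, gave -0.18. The chromosome 6 probe set, of only 10 probes, was far below the floor, with 4.72 in Oasl1-/- and 3.65 in WT cells, so its difference of 1.07 has no weight.

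Complex IV, cytochrome c oxidase, has its catalytic subunits encoded in mitochondria, and its nuclear subunits surround them. The 11 past the floor had a median of -0.32, and 10 were lower. Cox8a had 8.57 in Oasl1-/- and 9.03 in WT cells and Cox7b had 8.84 in Oasl1-/- and 9.30 in WT cells, a difference of -0.46 for each. Cox7c differed by -0.42, Cox6c by -0.41 and Cox5a by -0.32. The Cox7b and Cox6c values are from probe sets on chromosomes 1 and 12, and those at the genes' own loci gave -0.33 and -0.25. Cox7a2 had 9.43 in Oasl1-/- and 9.76 in WT cells (-0.33), and Cox5b had 11.21 in Oasl1-/- and 11.51 in WT cells (-0.30). The exceptions were Cox6a1, which was level at 9.95 in Oasl1-/- and 9.94 in WT cells, Cox4i1, with 10.93 in Oasl1-/- and 10.99 in WT cells (-0.05), and Cox6b1, with 10.43 in Oasl1-/- and 10.58 in WT cells (-0.15). Ndufa4, named as a complex I gene but since assigned to complex IV, had 11.17 in Oasl1-/- and 11.42 in WT cells (-0.25).

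Tissue-restricted paralogs were below the floor on both arrays. All 8 of these were complex IV genes, the muscle forms Cox6a2, Cox7a1 and Cox8b, the lung form Cox4i2, the testis forms Cox6b2, Cox7b2 and Cox8c, and Ndufa4l2, a hypoxia-induced relative of Ndufa4. Cox7a1 was the brightest, with 6.33 in Oasl1-/- and 6.87 in WT cells, and the others had signals of 5.86 or less. In Oasl1-/- against WT cells, Cox4i2 had 5.74 and 5.66, Cox6a2 5.86 and 5.83, Cox6b2 5.42 and 5.09, and Cox8b 4.76 and 4.51. In the same order Cox8c had 5.51 and 5.32, Cox7b2 2.76 and 2.88, and Ndufa4l2 5.19 and 5.09. All these signals lie below the 97.5% point of the intron controls on their array. The broadly expressed partners Cox4i1, Cox6a1, Cox6b1, Cox7a2, Cox7b, Cox8a and Ndufa4 all passed the floor. Another 7 members were also below it, namely Uqcr10, the complex I subunits Ndufb2 and Ndufb10, and the assembly or accessory genes Ndufaf2, Ndufaf4, Atp5s and Atp5sl. Each of these 7 was lower in Oasl1-/- cells except Atp5sl, which had 6.57 on both arrays. The complex I assembly factors Ndufaf2 and Ndufaf4 had 6.24 and 5.36 in Oasl1-/- cells, against 6.46 and 5.71 in WT cells, and Atp5s had 4.81 in Oasl1-/- and 5.23 in WT cells.

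Complex V, the ATP synthase, had all 15 structural members past the floor, and all were lower, with a median of -0.28. In the catalytic F1 head the large subunits were the least different. Atp5a1 had 12.49 in Oasl1-/- and 12.59 in WT cells (-0.10), Atp5b had 12.36 in Oasl1-/- and 12.54 in WT cells (-0.19), and the rotating stalk subunit Atp5c1 had 11.89 in Oasl1-/- and 12.08 in WT cells (-0.19). The small stalk subunit Atp5e, with 8.02 in Oasl1-/- and 8.62 in WT cells, was the other member at least 1.5-fold lower (-0.59, 1.51-fold). Its probe set of 22 probes spans chr2:174286576-174289602 (minus strand). Atp5d, its neighbour in the stalk, differed by -0.28.

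The c ring, which turns as protons pass, had the lowest median of any class, -0.43. Its 3 genes encode the same mature protein behind different import sequences. Atp5g1 had 8.26 in Oasl1-/- and 8.83 in WT cells (-0.57, 1.49-fold lower). Atp5g2 had 10.93 in Oasl1-/- and 11.36 in WT cells (-0.43), and Atp5g3 had 10.96 in Oasl1-/- and 11.30 in WT cells (-0.34). The further probe sets of these genes gave -0.54 for Atp5g1 and -0.43 and -0.42 for Atp5g2, where those at the genes' own loci are -0.54 and -0.42. Since the 3 genes share their mature coding sequence, probes may pick up more than one of them. The small membrane subunits Atp5l, with 8.97 in Oasl1-/- and 9.49 in WT cells (-0.52), Atp5j2 (-0.36) and Atp5k (-0.27) were lower too. Of the peripheral stalk genes, Atp5j differed by -0.28 and Atp5h by -0.25. Nearer to level were Atp5f1 (now Atp5pb) at -0.18 and Atp5o, which links the stalk to the head, at -0.06. Atp5o had 10.44 in Oasl1-/- and 10.50 in WT cells.

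Assembly factors are proteins that help to build a complex without staying in it. Of the 7 members in this class, which includes accessory genes, 3 passed the floor. Ndufaf1 and Ndufaf3, which build complex I, had 7.64 and 7.99 in Oasl1-/- cells, against 7.70 and 8.32 in WT cells (-0.06 and -0.32). Cox7a2l, which joins complexes III and IV into supercomplexes, had 7.50 in Oasl1-/- and 7.71 in WT cells (-0.21). That probe set lies on chromosome 12, while RefSeq places Cox7a2l on chromosome 17. The probe set at its own locus was below the floor, with 6.46 in Oasl1-/- and 6.79 in WT cells (-0.33). The median of the structural subunits, -0.28, was 0.08 below that of these 3, -0.21, and with a floor of 8 it was 0.04 above. With so few assembly genes the 2 classes were not set apart.

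A list of 28 further assembly genes outside the naming rule had 22 past the floor, with a median of -0.21. Of these 18 were lower and 4 higher, with a wider SD of 0.31. Sdhaf1, for complex II, had 7.34 in Oasl1-/- and 7.96 in WT cells (-0.62) and was the only one at least 1.5-fold different. The 4 that were higher all serve complex IV, namely Sco1, which delivers copper (7.93 in Oasl1-/- and 7.38 in WT cells, 0.55), Cox18 (0.39), Cox15 (0.31), which makes haem a, and Surf1 (0.12). Of the other complex IV factors Cox19 differed by -0.58, Ccdc56 by -0.41, Cox17 by -0.30 and Cox10 by -0.25, where the Oasl1-/- signals of Cox19, Cox17 and Cox10 lie below the 97.5% point of the intron controls.

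Genes that serve the chain from outside were lower by similar amounts. The 8 carriers and channels for ADP, ATP and phosphate past the floor were all lower, with a median of -0.21. Their largest difference was that of Atpif1, the inhibitor of the ATP synthase, with 11.63 in Oasl1-/- and 11.92 in WT cells (-0.29), followed by the outer membrane channel Vdac1, with 9.68 in Oasl1-/- and 9.95 in WT cells (-0.27), and the ADP/ATP carrier Slc25a5, with 11.04 in Oasl1-/- and 11.28 in WT cells (-0.23). Of 8 coenzyme Q genes 7 were lower (median -0.24). The lowest were Coq3, Coq10a and Coq7, with 7.56, 8.27 and 7.65 in Oasl1-/- cells, against 7.88, 8.58 and 7.96 in WT cells (-0.32, -0.31 and -0.31). Mitochondrial import genes had a median of -0.32, with 23 of 24 lower and 4 at least 1.5-fold lower (6.28% of all genes past the floor). These were Timm8b, Timm10 and Dnajc19, all of inner membrane import, with 6.40, 7.11 and 7.81 in Oasl1-/- cells, against 7.14, 7.78 and 8.44 in WT cells (-0.74, -0.67 and -0.63), and Hspe1, the small chaperonin, with 10.42 in Oasl1-/- and 11.16 in WT cells (-0.73). Of these 4, Timm8b and Timm10 had Oasl1-/- signals below the 97.5% point of the intron controls, so the size of their differences is uncertain. Of 9 transcription and RNA factors for OXPHOS genes 8 were lower, with a median of -0.23. Tfb2m, needed for mitochondrial transcription, had 6.46 in Oasl1-/- and 7.25 in WT cells, and it passed the floor through the WT array alone, which leaves the amount by which it differs open to background. Yy1 differed by -0.24, Gabpa by -0.23, Nrf1 by -0.22 and Esrra by 0.09.

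Other gene classes showed how far the pattern was shared. The 64 mitochondrial ribosomal protein genes past the floor had a median of -0.30 with 61 lower, and the 79 cytosolic ones had -0.32 with all lower. In these lists 9 of 64 and 5 of 79 genes were at least 1.5-fold lower, where 6.28% of all genes past the floor were. The cytosolic count is thus close to the share over all genes. Of the 9, Mrps35 passed the floor through the WT array alone, with 6.56 in Oasl1-/- and 7.16 in WT cells. The SD was 0.23 in the mitochondrial and 0.17 in the cytosolic list. The largest differences were those of Mrpl41, Mrps26 and Mrps18b, with 8.36, 7.66 and 9.00 in Oasl1-/- cells, against 9.36, 8.51 and 9.76 in WT cells. Among the cytosolic genes Rps12 and Rps28 differed by -0.65 and -0.61. Rps27l, with 6.53 in Oasl1-/- and 7.67 in WT cells, and Rpl22, with 6.54 in Oasl1-/- and 7.19 in WT cells, passed the floor through the WT array alone, so the size of their differences is uncertain. A further 140 genes that the array annotation places in the mitochondrial inner membrane, and that belong to neither the members nor the mitochondrial genome, had a median of -0.19 with 110 lower. No test of members against these classes was possible, and their differences overlapped widely.

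**Figure D4:**
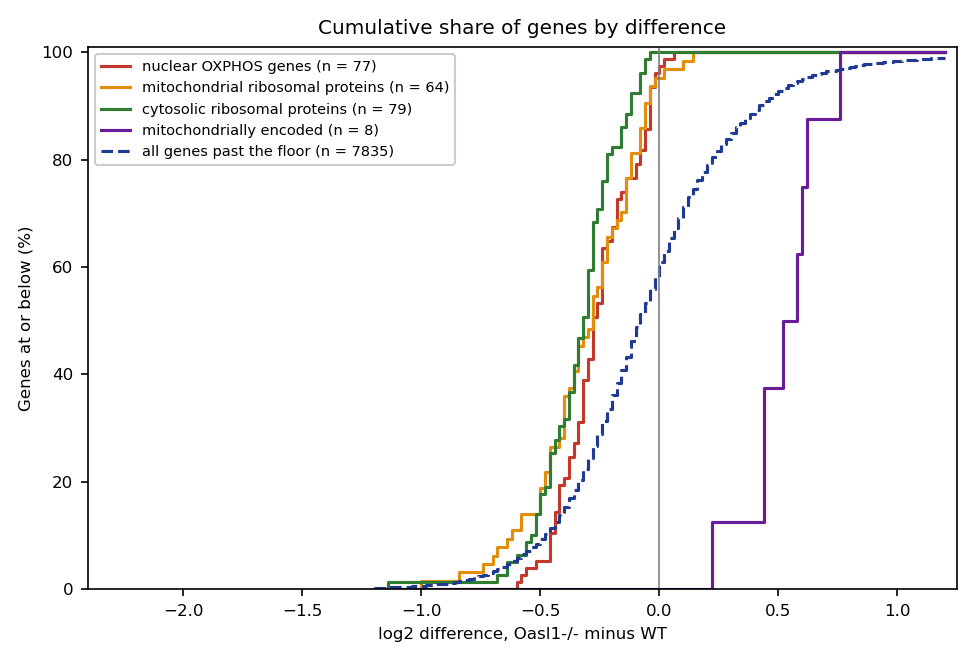
Cumulative share of genes (%) by log2 difference, Oasl1-/- minus WT, for nuclear OXPHOS genes, both kinds of ribosomal protein genes, mitochondrially encoded genes and all genes past the floor. The OXPHOS curve runs close to the ribosomal protein curves and lies left of all genes at its median (-0.28 against -0.09), while the mitochondrially encoded genes lie to the right.

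Subunits of the same complexes that are encoded in mitochondria stood on the other side. All 8 measured were higher in Oasl1-/- cells, with a median of 0.53. For complex I, the 34 nuclear genes had a median of -0.29 and ND1, ND2, ND3 and ND4L one of 0.58, with ranges of -0.61 to 0.06 and 0.42 to 0.75 that do not overlap. ND3 had 8.01 in Oasl1-/- and 7.26 in WT cells, and ND4L had 10.10 in Oasl1-/- and 9.50 in WT cells. For complex III the nuclear median was -0.27 and CYTB, with 11.93 in Oasl1-/- and 11.33 in WT cells, differed by 0.61. For complex IV the nuclear median was -0.32, while COX1 and COX2 differed by 0.20 and 0.44, and for complex V it was -0.28, while ATP6 differed by 0.50. These mRNAs are translated inside mitochondria, so their signal in the gradient is no measure of cytosolic polysomes.

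Several members were read through probe sets that do not lie at the gene. Of the 92 genes 22 had several probe sets. For 11 genes the brightest was not the one at the gene's own locus, and for 10 of these it lay on another chromosome than RefSeq gives, for example Atp5l on chromosome 1 and Atp5f1 on chromosome 11. In the 19 genes that had more than one probe set above the floor, differences within a gene spanned a median of 0.07 and at most 0.16 (Cox6c), and every probe set past the floor in these 19 genes was lower. They were read from the same hybridisations, and some probes may be common to them, so this is no replicate error. Read only at the genes' own loci, 75 members passed the floor with a median of -0.28, and 73 were lower. The 28 probe sets past the floor at other loci, several of them of the same gene, had a lower median of -0.37. They come from only some of the genes, so the medians do not compare loci.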

How the data were processed

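Polysomal RNA of 1 Oasl1-/- and 1 WT macrophage culture was measured on arrays of several probes per transcript. The authors deposited log2 signals made with GCOS and RMA, per the submitters' processing notes, and the series' design text names the R affy-package 2.9.2 and Expression Console 1.1. Over all probe sets the median was 5.13 on the Oasl1-/- and 5.04 on the WT array, and the upper quartile 7.42 and 7.52. Since the deposited columns differed in this way, centred, loess and quantile versions were also computed. The deposited log2 ratio was the Oasl1-/- minus the WT signal in all 35556 rows, and the deposited fold, a linear ratio, was 2 to the power of its size. The second table held the same signals. Coordinates are those of the file (NCBIM37). The number of arrays limits the precision.

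Genes were taken from the symbol column. RefSeq (GRCm38.p6) matched all 92 members, by accession or, failing that, by symbol or synonym, 4 of them under another symbol. Counts used 1.5-fold and 2-fold (0.58 and 1 on the log2 scale) and shares over the 7835 genes past a floor of 7. Medians over lists are descriptions. The steps were checked on simulated data (Python 3.11.15, pandas 2.3.3, statsmodels 0.14.6). Alternatives were other floors, centring on the median gene, loess (span 0.4), quantile normalization, a pseudocount of 32 on the linear scale and other choices of probe set. Members and lists were chosen with earlier results of these data known. Signals on both arrays are given for the lowest, highest and brightest members of each complex, all members past 1.5-fold, the paralog sets, the Sdh genes, Cyc1, Cycs and the assembly factors, and in the other lists for genes past 1.5-fold or else the largest differences; further members are named by their difference. The own-locus probe sets, the core split and the inner membrane list were added after the values were seen. Differences by protein length were planned but not analysed here. Values of some single genes are not reported here, though they count in the medians.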

Additional observations from a re-analysis of the deposited data

How the results depend on the processing

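The median of the members kept its sign and moved by less than 0.1 under all 11 alternatives, between -0.28 and -0.19, and relative to the median gene of the same setting it lay between -0.30 and -0.18. How many members were lower depended on the scale. It was 62 of 77 after centring (50% of all genes), 70 after loess (50.6%) and 67 after quantile normalization (51.6%), against 75 as reported. The count of members at least 1.5-fold lower, 2 as reported, was 0 after centring, loess, quantile normalization or the pseudocount. It was 1 with a floor of 8, where Ndufb3 is left out. With the dimmest probe set of each gene it was 3 of 73, as Ndufc1 is then added. Complex IV had a median of -0.15 without a floor, which adds the tissue-restricted paralogs. Structural subunits minus assembly factors was 0.040 with a floor of 8. After loess the medians were -0.079 for the other assembly factors, -0.089 for coenzyme Q genes and -0.18 for mitochondrial ribosomal proteins. The mitochondrially encoded genes had 0.42 as a mean over probe sets and 0.38 with the dimmest probe set. Of 833 values of single members under the alternatives, 800 moved by less than 0.1. Much of this was fixed in advance, since a floor leaves a gene's difference as it is and centring shifts all genes by the same 0.09. Genes with a single probe set also cannot move under another choice of probe set. Loess moved 16 of 77 members by 0.1 or more, and quantile normalization moved 5. Cycs gave 0.24 as a mean over its probe sets, because the dim chromosome 6 probe set enters. No paired analysis was possible because there is 1 array per genotype, and no array could be left out. Of the 492 genes at least 1.5-fold lower, 225 had an Oasl1-/- signal below the 97.5% point of the intron controls, and 1 of the 2 members.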
